A study of Mus musculus with 122 samples.

Results

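The data describe 10 genes of the Notch pathway in mouse embryonic stem cells (mESCs) that make CTCF, CTCFL or a chimera of both. They are the ligand genes Dll1, Dll3, Dll4, Jag1 and Jag2, the receptor genes Notch1, Notch2 and Notch3 and the target genes Hes1 and Hey1, and all 10 were found among the 52459 genes of the RNA-seq table. The set was chosen by the measured rise of Dll1 on induction of CTCFL (D against U and ID against I of the CTCFL line), and the question was whether other ligands, receptors and targets followed. Those Dll1 values are therefore a description here and carry no test.

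Notch signaling passes between touching cells. A ligand of the Delta or Jagged kind on one cell binds a Notch receptor on its neighbor, the receptor is cleaved, and its intracellular part enters the nucleus, where it joins the DNA-binding protein RBPJ and switches on genes such as Hes1 and Hey1, which encode transcriptional repressors. In embryonic stem cells the pathway is best known for its part in the exit from pluripotency, when neighboring cells take up different fates. CTCF is the zinc finger protein that marks boundaries of chromatin domains, and CTCFL (BORIS) is its paralog, normally made in the male germ line.

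All lines derived from E14Tg2a mESCs (129/Ola, XY), and each line was a picked clone. The protocol gives serum with LIF and 2 kinase inhibitors for all lines. In all of them, the controls included, both Ctcf alleles carried an auxin-inducible degron with eGFP and Rosa26 carried the Tir1 gene, so that the auxin IAA (500 µM) degrades the endogenous CTCF protein. A transgene with a FLAG and an mRuby2 tag at the Tigre locus was induced by doxycycline (Dox, 1 µg/ml). It encoded CTCF, CTCFL, LCL (termini of CTCFL, zinc fingers of CTCF) or CLC (termini of CTCF, zinc fingers of CTCFL). ChIP-seq was also given for CLL and LLC, which have 1 terminus swapped, and Hi-C for CLL in ID, which is not used here. Conditions are written U for untreated cells, I for IAA, D for Dox and ID for both, given for 24 h by the labels, or 48 h in the ChIP-seq of CLL and LLC. By the protocol, treatment lasted 4 days before Hi-C and 2 days before the other assays. RNA-seq held 38 libraries: in the CTCFL line 3 each of U, I and D and 2 of ID, in the CTCF line 2 of U and 3 each of I, D and ID, and in the LCL and CLC lines 2 of every condition. The reads behind 36 of the libraries came to between 6847072 and 49716771, as recovered from the table. Library names of LCL and CLC carry a tag that may stand for the kinase inhibitors, and those of CTCFL and CTCF lack it. Whether medium or batch differed between these lines was not tested. The labels do not say whether replicates came from separate cultures, so a p-value measures only the spread between these libraries, which may be technical. In bulk RNA, fewer cells that express a gene and less RNA per cell cannot be told apart.

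Values are normalized read counts, that is gene counts that the authors divided by a size factor per library. A gene changed where limma gave a Benjamini-Hochberg adjusted p under 0.01 over all genes tested in that line, and it was called where its log2 fold change was also above 1 in either direction. Fold changes are on the scale of log2(value + 1), which understates the change of low genes. Genes needed a mean of at least 10 in a line. Dll4 reached it only in the CTCFL line, through its D and ID libraries, so its fold changes with Dox there had to be large. They carry no test and enter no count or median, and the gene was below the minimum in the other 3 lines.

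The transgene was checked first. In the CTCFL line Ctcfl stood at 193, 225 and 206 in the 3 U libraries and at 7764, 9398 and 7570 in D, with a log2 fold change of 5.30 ± 0.10 (SE). Ctcfl also rose with Dox in LCL (3.62) and CLC (5.40), whose transgenes hold parts of its sequence. Ctcf did not rise with Dox in the CTCF line (4712 and 4691 in U, 3845, 3850 and 3550 in D), so the table does not check that transgene. Pluripotency markers were high in every library, with summed values over Pou5f1, Nanog, Sox2, Zfp42, Klf4, Esrrb, Tfcp2l1 and Tbx3 between 69964 and 254040.

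The sequences below are the Dll1 promoter and the windows of 200 bases around the summits of binding sites on which the ChIP-seq results turn. They are in GRCm38, printed 5′ to 3′ on the strand of the gene (plus for Dll4, minus for the others). The promoter is RefSeq's, from 250 bases before to 50 bases after a start. Capitals mark core words of the CTCF motif, searched as AGGGGGC or AGGTGGC or AGAGGGC or AGATGGC on either strand.
Dll1 promoter, chr17:15375774-15376073: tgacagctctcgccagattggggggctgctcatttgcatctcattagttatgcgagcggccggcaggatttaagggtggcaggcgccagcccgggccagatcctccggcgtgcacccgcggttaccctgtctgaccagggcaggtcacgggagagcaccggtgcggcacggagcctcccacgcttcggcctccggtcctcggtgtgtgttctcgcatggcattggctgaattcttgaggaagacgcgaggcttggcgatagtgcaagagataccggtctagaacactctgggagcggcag
Jag2, CTCFL site, chr12:112930284-112930483: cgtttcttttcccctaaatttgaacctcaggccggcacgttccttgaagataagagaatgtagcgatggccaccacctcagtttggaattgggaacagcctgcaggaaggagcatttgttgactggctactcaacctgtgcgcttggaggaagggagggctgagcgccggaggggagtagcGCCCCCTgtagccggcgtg
Dll4, CTCFL site, chr2:119326986-119327185: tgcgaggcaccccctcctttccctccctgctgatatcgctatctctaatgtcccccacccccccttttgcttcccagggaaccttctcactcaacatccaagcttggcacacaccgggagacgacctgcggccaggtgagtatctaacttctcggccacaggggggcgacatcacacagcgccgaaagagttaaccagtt
Notch1, CTCFL site, chr2:26503921-26504120: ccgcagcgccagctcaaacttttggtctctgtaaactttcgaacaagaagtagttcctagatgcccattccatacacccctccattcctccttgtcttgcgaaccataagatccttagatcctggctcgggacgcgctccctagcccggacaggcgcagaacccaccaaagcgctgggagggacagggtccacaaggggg
Jag1, CTCFL site, chr2:137114186-137114385: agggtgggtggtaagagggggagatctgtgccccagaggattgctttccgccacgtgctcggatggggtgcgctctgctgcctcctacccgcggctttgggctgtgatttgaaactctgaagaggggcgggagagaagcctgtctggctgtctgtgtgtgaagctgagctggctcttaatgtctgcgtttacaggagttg
Jag1, CTCF site, chr2:137117477-137117676: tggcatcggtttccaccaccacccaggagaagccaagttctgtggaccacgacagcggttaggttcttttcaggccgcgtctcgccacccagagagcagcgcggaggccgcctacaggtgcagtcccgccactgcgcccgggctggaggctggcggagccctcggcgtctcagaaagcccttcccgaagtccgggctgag
Dll3, CTCFL site, chr7:28299240-28299439: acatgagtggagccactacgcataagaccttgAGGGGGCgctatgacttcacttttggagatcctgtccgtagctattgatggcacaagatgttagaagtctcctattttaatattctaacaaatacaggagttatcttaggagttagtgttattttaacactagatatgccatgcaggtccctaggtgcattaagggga
Hey1, CTCFL site, chr3:8664664-8664863: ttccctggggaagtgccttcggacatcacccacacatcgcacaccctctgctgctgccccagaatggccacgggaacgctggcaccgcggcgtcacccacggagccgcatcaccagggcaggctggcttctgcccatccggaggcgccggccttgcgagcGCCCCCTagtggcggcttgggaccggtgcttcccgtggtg
Core words stood in the Jag2, Dll3 and Hey1 windows and not in those of Dll4, Notch1 or Jag1. Of all CTCFL sites in D, 50.8% held such a word in their window, and of all CTCF sites in D, 55.2%. Of 32851 RefSeq promoters of 300 bases, 27.6% held a core word, as did those of Dll4, Jag1 and Notch3. The word GTGGGAA of RBPJ was in 6.38% of all promoters and in none of the 9 promoters found for 8 of the genes. A match of letters is a description, not a bound site. Hes1 and Hey1 had no RefSeq promoter here.

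Dll1 itself, a Delta ligand, had the largest log2 fold change of the members in D against U of the CTCFL line. It stood at 376, 484 and 382 in the U libraries of the CTCFL line, at 3508, 3891 and 3686 in D, at 750, 544 and 680 in I and at 2404 and 2160 in ID. All D libraries lay above all U libraries, and both ID libraries above all I libraries. The log2 fold change was 3.16 ± 0.11 (SE) for D against U and 1.80 ± 0.13 for ID against I. These are the values the genes were chosen by. For ID against I of this line, Dll4 had a larger log2 fold change than Dll1 (3.18), which carries no test either.

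The Dll1 values of the other lines were not used for the choice. In the CTCFL line Dll1 was higher in I than in U by 0.66 ± 0.11 on the log2 scale (limma adjusted p = 6.32e-05). Those U and I libraries were the baselines of the choice, so this test is not independent of it. In the CTCF line Dll1 stood at 319 and 317 in U, 389, 368 and 354 in D, 348, 339 and 335 in I and 684, 690 and 672 in ID. CTCF induced in cells without endogenous CTCF thus went with a rise of 1.00 ± 0.08 (limma adjusted p = 1.03e-06), with no overlap between ID and I, whereas D against U gave 0.22 (adjusted p = 0.102) and I against U 0.10 (adjusted p = 0.404). In the chimera lines the gene was low, between 9.49 and 130. LCL ID (67.1 and 130) lay above LCL I (39 and 31.6), a difference of 1.39 ± 0.45 that missed the threshold (limma adjusted p = 0.0151). It passed with a pseudocount of 5 (1.30, adjusted p = 0.00802), with edgeR on the reads (1.45, adjusted p = 0.0076) and with these groups fitted alone (1.39, adjusted p = 0.0036). CLC D (37.8 and 42.7) lay above CLC U (21.1 and 9.49), with a difference of 1.44 ± 0.41 (limma adjusted p = 0.0585).

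The level of Dll1 per kb of exon followed the line before it followed the treatment. Its mean was 98.1 in CTCFL U and 75.4 in CTCF U, but 4.26 in LCL U and 3.63 in CLC U, and every library of LCL and CLC lay below every library of CTCFL and CTCF. The order of the groups ran from CTCFL D (876) and CTCFL ID (541) through CTCF ID (162) and CTCFL I (156), which overlapped in their libraries, to CTCFL U (98.1), CTCF D (87.8), CTCF I (80.7) and CTCF U (75.4). CTCFL U and CTCF D overlapped in their libraries. LCL ID (23.4) was the highest of the chimera groups and overlapped with none of them, and below it each group overlapped with the next in the order CLC I (10.7), CLC D (9.54), LCL I (8.36), CLC ID (6.54), LCL D (5.05), LCL U and CLC U. The lines are separate clones, and clone and line cannot be told apart. LCL and CLC also differ from CTCFL and CTCF by the tag in their library names. A difference in medium or batch between them was not tested and cannot be told apart from line.

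**Figure D1:**
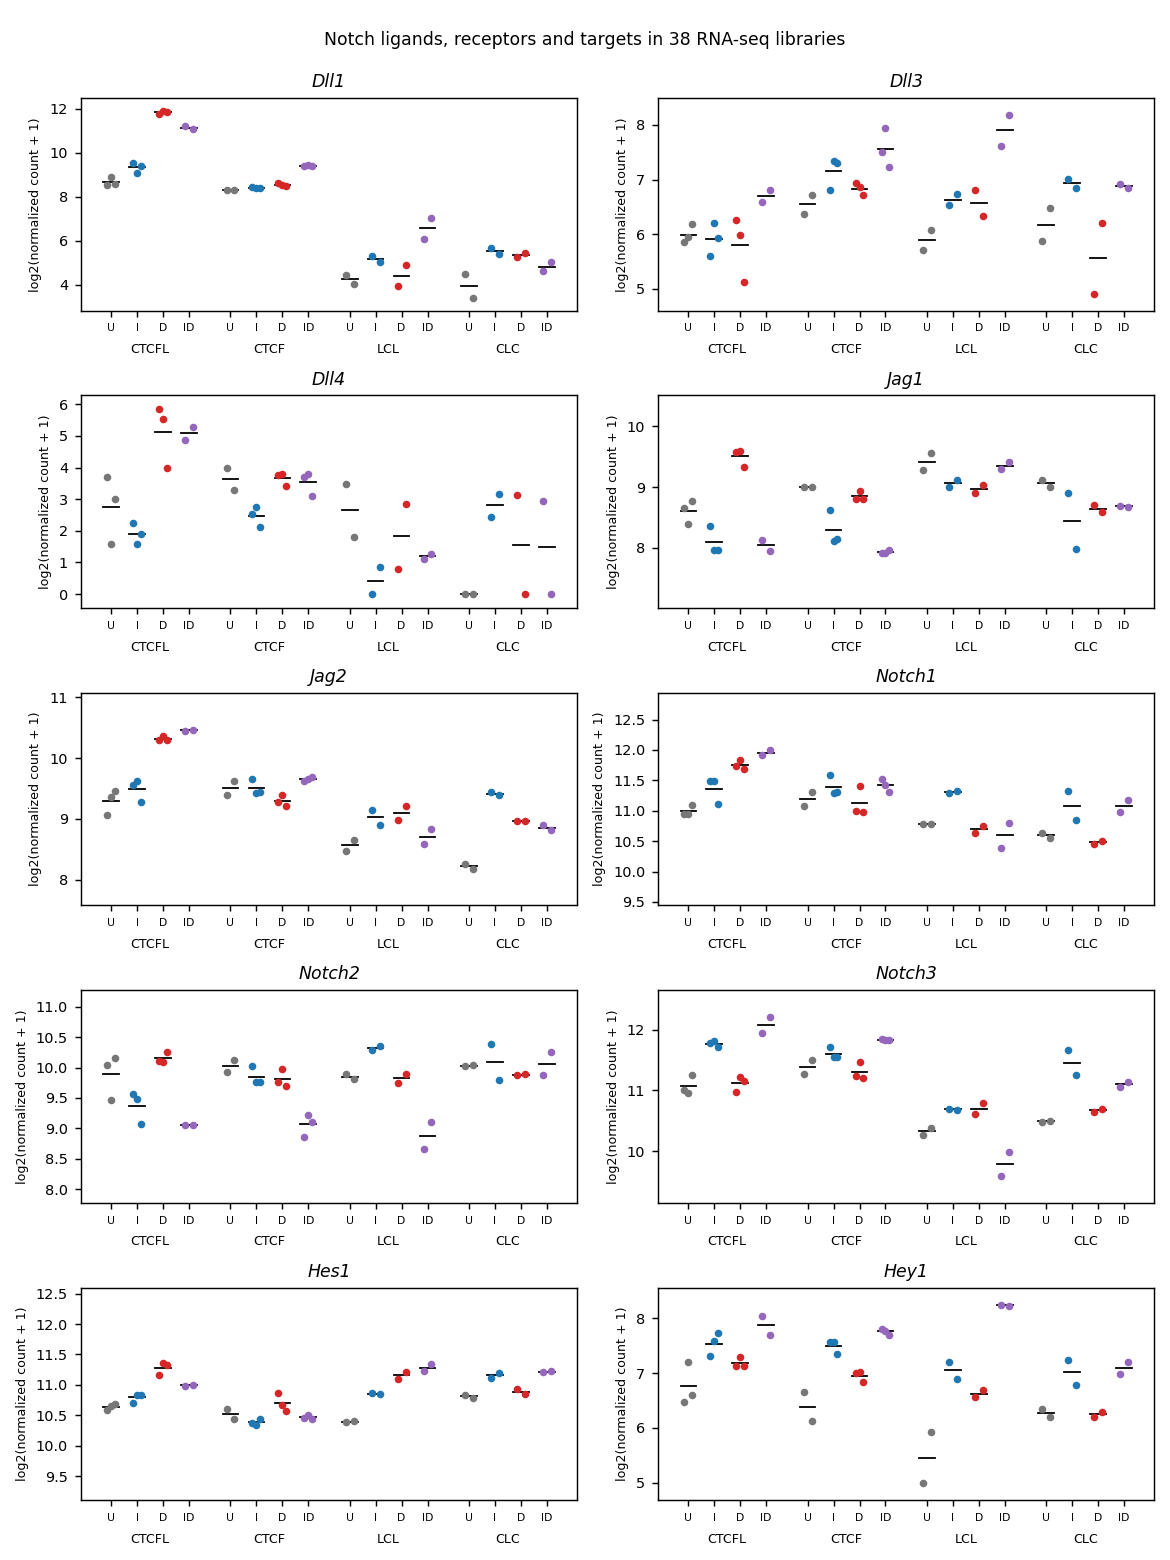
Normalized counts of the 10 genes in 38 RNA-seq libraries, as log2(value + 1), by line and condition; each point is a library, each bar the group mean, and the axis differs between panels and does not start at 0. Dll1 is highest in CTCFL D (3508 to 3891) and ID, and lowest in the LCL and CLC lines.

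Jag2, a Jagged ligand, rose when CTCFL was induced, with and without endogenous CTCF. Jag2 stood at 533, 658 and 703 in U and at 1261, 1320 and 1255 in D of the CTCFL line, without overlap. It rose by 1.03 ± 0.11 on the log2 scale (limma adjusted p = 2.32e-07) and by 0.97 ± 0.12 in ID (1397 and 1415) against I (754, 789 and 623; limma adjusted p = 1.59e-06). Jag1, the other Jagged ligand, stood at 403, 337 and 437 in U and 764, 775 and 644 in D, and rose by 0.89 ± 0.14 (limma adjusted p = 5.06e-05). It did not do so without endogenous CTCF: the libraries of ID (281 and 247) overlapped those of I (326, 249 and 250), with a difference of -0.05 ± 0.16.

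Dll4, a Delta ligand best known from vessels, was low in every library. It stood at 12.1, 1.98 and 6.97 in U and 56.2, 44.9 and 15 in D of the CTCFL line, and at 3.73, 2 and 2.72 in I and 28.4 and 38.2 in ID. The log2 fold change was 2.36 ± 0.73 for D and 3.18 ± 0.82 for ID. These sizes were fixed in part by the minimum mean, as said above, and are a description. In the other lines no library of Dll4 was above 14.9, and CLC U was listed at 0 in both. Dll3, the Delta family member that acts inside the cell as an inhibitor, overlapped between U (56.6, 60.3 and 72) and D (76, 62.6 and 33.7) of the CTCFL line.

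Of the receptors, Notch1 rose and the other two did not pass the test. Notch1 stood at 1977, 1966 and 2192 in U and 3396, 3650 and 3288 in D of the CTCFL line. It rose by 0.75 ± 0.09 in D (limma adjusted p = 1.02e-06) and by 0.60 ± 0.10 in ID (3849 and 4098) against I (2868, 2865 and 2207; adjusted p = 5.20e-05), without overlap in either. Notch2 (0.26, adjusted p = 0.165) and Notch3 (0.04, adjusted p = 0.745) overlapped between U and D. Of the targets, Hes1 rose from 1542, 1611 and 1638 in U to 2297, 2634 and 2562 in D, by 0.64 ± 0.07 (limma adjusted p = 9.09e-07). In ID (2031 and 2042) it lay above I (1674, 1831 and 1826) by 0.20 ± 0.08, which missed the threshold (adjusted p = 0.0649). Hey1 overlapped between U (87.5, 147 and 96.4) and D (140, 155 and 139).

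In the CTCFL line, then, 4 of the 8 members tested changed with D, all of them up (Jag1, Jag2, Notch1 and Hes1), beside 24.9% of all 16840 genes tested that changed in either direction. With 1 member called (Jag2), the share of all genes called was 5.9%. The median log2 fold change of these 8 was 0.53 and that of all genes 0.00 to 2 decimals. In ID against I 2 of 8 changed, both of them up (Jag2 and Notch1), beside 29.7% of all genes. By limma 0 were called there, with 0 past the fold threshold at an unadjusted p under 0.05 and 0 by edgeR and DESeq2, beside 7.83%. Without ID replicate 1 Notch3 passed the test as well (0.44, adjusted p = 0.00937). Jag2 lies close to the fold threshold. Without U replicate 1 it was below it in D (0.91, adjusted p = 3.03e-06), and without I replicate 1 (1.00) or I replicate 2 (1.04) it was above it in ID.

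Markers of other states moved in the same libraries. The sum of the 8 pluripotency markers fell from between 129478 and 137592 in U to between 98101 and 101115 in D, where 4 of 8 fell (Nanog, Sox2, Zfp42 and Klf4), and from between 98468 and 104210 in I to between 69964 and 71623 in ID, where 6 of 8 fell. The sum of the 4 germ cell markers rose from between 9247 and 9793 to between 17032 and 17914 in D and from between 15504 and 17284 to between 27166 and 28121 in ID. Of these 4, Ddx4 and Stra8 rose in D and Dazl and Stra8 in ID. The authors link CTCFL binding at the Stra8 promoter to activation of that gene. Fibroblast sums went from between 828 and 1024 to between 1180 and 1458 in D (1 of 3 tested up, Col1a1) and from between 1077 and 1312 to between 1987 and 2160 in ID (2 of 3 up). Mesoderm sums went from between 209 and 325 to between 371 and 482 in D and from between 250 and 277 to between 484 and 524 in ID, with 1 of 5 up in each, Eomes. Of the 4 endoderm markers 2 fell in D and 1 in ID, with sums between 2269 and 2713 in U and between 1629 and 1831 in D, and of the 3 neural markers tested 3 fell in D (Sox1, Nes and Tubb3) and 2 in ID. Primed epiblast sums went down in D, from between 1688 and 1875 to between 1139 and 1214. They went up in ID, from between 1527 and 1677 in I to between 1820 and 1937. The part of all these markers in the changes of the Notch genes was not tested.

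**Figure D2:**
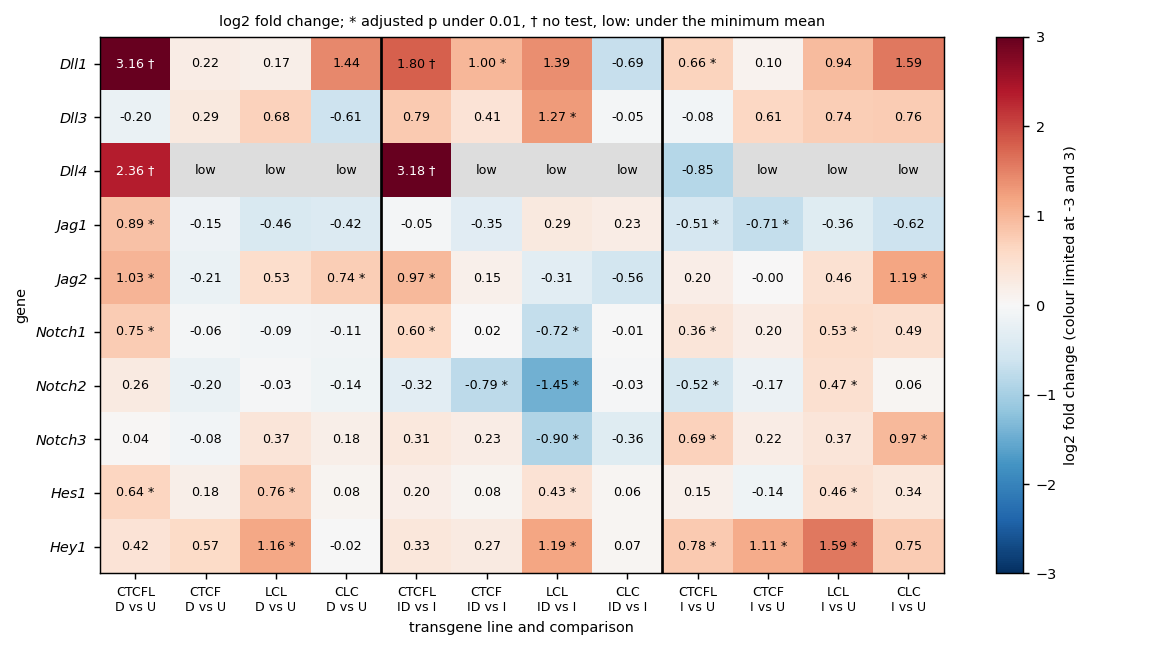
Log2 fold changes of the 10 genes (rows) in 4 lines for D against U, ID against I and I against U (columns), with color limited at -3 and 3; a star marks an adjusted p under 0.01, a dagger a value with no test, and grey cells are below the minimum mean. Jag1 (0.89), Jag2 (1.03), Notch1 (0.75) and Hes1 (0.64) rose with CTCFL in D, and no member passed the test in CTCF D.

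The induction of CTCF beside the endogenous protein served as the comparison. In CTCF D against U, limma found 0 of 9 members changed and 0 called, with 2 at an unadjusted p under 0.05, and edgeR and DESeq2 each found 0, beside 4.7% of all genes changed and 0.455% called. Log2 differences ran from -0.21 for Jag2 to 0.57 for Hey1 (limma adjusted p = 0.0335). A test of the difference between the lines found 4 of 8 members with a larger change in CTCFL than in CTCF, beside 11.9% of all genes differing in either direction. These were Jag2 (1.24 ± 0.16, limma adjusted p = 1.17e-06), Jag1 (1.04 ± 0.23, adjusted p = 0.0017), Notch1 (0.82 ± 0.18, adjusted p = 0.00152) and Hes1 (0.46 ± 0.10, adjusted p = 0.00163). Without CTCF U replicate 2, Jag1 (1.04, adjusted p = 0.012) and Notch1 (0.70, adjusted p = 0.0255) missed the threshold, and without CTCF U replicate 1 so did Hes1 (0.38, adjusted p = 0.0217), so only Jag2 held in every such fit.

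Without endogenous CTCF the lines were closer. In CTCF ID against I, 2 of 9 members changed, beside 25.5% of all genes. Dll1 rose (above) and Notch2 fell from 1047, 863 and 871 to 462, 598 and 551, by 0.79 ± 0.12 on the log2 scale (limma adjusted p = 1.39e-04). By limma 0 members were called, with 0 past the fold threshold at an unadjusted p under 0.05, 0 by edgeR and 1 by DESeq2, beside 5.06% of all genes. Dll1 passed that threshold without I replicate 1 or ID replicate 3 (1.01 in each). The change from I to ID was larger in CTCFL than in CTCF for 1 of 8 members, Jag2 (0.82 ± 0.16, limma adjusted p = 3.70e-04), beside 8.34% of all genes. Within the CTCFL line, 2 of 8 members responded less to Dox with IAA than without, beside 11% of all genes: Jag1 by -0.94 ± 0.23 (limma adjusted p = 0.00404) and Hes1 by -0.45 ± 0.10 (adjusted p = 0.00222). Neither held in every fit, although the sizes moved little. Jag1 missed the threshold without U replicate 2 (-0.84, adjusted p = 0.0158), I replicate 1 (-0.81, adjusted p = 0.0178), D replicate 1 (-0.91, adjusted p = 0.0101), D replicate 2 (-0.90, adjusted p = 0.0116) or ID replicate 2 (-0.85, adjusted p = 0.0318), and Hes1 without ID replicate 1 (-0.44, adjusted p = 0.0134) or 2 (-0.45, adjusted p = 0.011), and edgeR found 0 of 8.

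The chimeras were compared in the same way. In LCL D against U, 2 of 9 changed, beside 11.3% of all genes, and both were targets. Hes1 rose from 1335 and 1357 to 2190 and 2370, by 0.76 ± 0.09 (limma adjusted p = 1.22e-05). Hey1 rose from 30.8 and 59.9 to 93.2 and 102, by 1.16 ± 0.27 (adjusted p = 0.00411), and was the 1 member called, beside 1.91% of all genes. Hey1 missed the threshold without U replicate 1 (0.69, adjusted p = 0.101), D replicate 1 (1.23, adjusted p = 0.0227) or D replicate 2 (1.10, adjusted p = 0.0478). The Jagged ligands lay close to the threshold there. Jag1 (-0.46) passed with the replicate number as a block (adjusted p = 0.00812) and by DESeq2 (-0.48, adjusted p = 0.00931), and Jag2 (0.53) with the block (adjusted p = 0.00876) and with these groups fitted alone (adjusted p = 0.00777). In LCL ID against I, 6 of 9 changed, beside 33.1%, and 3 were called, beside 8.49%. Up were Dll3 (91.4 and 105 to 196 and 290, 1.27 ± 0.26), Hey1 (147 and 118 to 303 and 299, 1.19 ± 0.27) and Hes1 (0.43 ± 0.09), and down were all receptors, Notch2 from 1248 and 1312 to 401 and 548 (-1.45 ± 0.13, limma adjusted p = 4.24e-08), Notch3 by 0.90 ± 0.12 and Notch1 by 0.72 ± 0.11. Hes1 was lost without I replicate 1 (0.44, adjusted p = 0.0113) or I replicate 2 (0.42, adjusted p = 0.0156), Dll3 without ID replicate 2 (0.99, adjusted p = 0.0158) and Hey1 without I replicate 2 (1.03, adjusted p = 0.0192) or ID replicate 1 (1.18, adjusted p = 0.0129). Without LCL ID replicate 2 Notch3 passed the fold threshold as well (-1.11). Of the 4 germ cell markers all fell in the same comparison, and their part in it was not tested.

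In CLC D against U, 1 of 9 members changed, beside 1.62% of all genes. Jag2 rose from 306 and 289 to 497 and 500 (0.74 ± 0.11, limma adjusted p = 0.00782), with no overlap. Without any 1 of the 4 libraries the difference was 0.70 to 0.78 and missed the threshold (adjusted p between 0.0618 and 0.126), as it did with the replicate block (0.74, adjusted p = 0.0266). By limma 0 were called, with 1 past the fold threshold at an unadjusted p under 0.05 and 0 by edgeR and DESeq2, beside 0.6% of all genes. In CLC ID against I, limma found 0 of 9 changed and 0 called, with 2 at an unadjusted p under 0.05, and edgeR and DESeq2 found 1 changed (Jag2, -0.57 and -0.54) and 0 called, beside 5.49% changed and 1.95% called. Left-out libraries brought 1 further member past the threshold there, Jag1 without I replicate 1 (0.70, adjusted p = 0.00497) and Notch3 without I replicate 2 (-0.56, adjusted p = 0.00394).

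Set against the chimeras, D against U was larger in CTCFL than in LCL for 2 of 8 members, beside 15% of all genes: Jag1 (1.35 ± 0.25, limma adjusted p = 1.35e-04) and Notch1 (0.84 ± 0.19, adjusted p = 0.00149). It was larger in CTCFL than in CLC for 3 of 8, beside 13.2%: Jag1 (1.31 ± 0.25, adjusted p = 2.23e-04), Hes1 (0.57 ± 0.11, adjusted p = 2.94e-04) and Notch1 (0.87 ± 0.19, adjusted p = 0.00129). Notch1 missed the threshold against LCL without LCL D replicate 1 (0.78, adjusted p = 0.0125) and against CLC without CLC U replicate 1 (0.82, adjusted p = 0.0106). Without LCL U replicate 2 Hey1 passed instead, lower in CTCFL (-1.21, adjusted p = 0.00708). The change of Jag1 in CTCFL D thus exceeded that in CTCF D, LCL D and CLC D, apart from the fit without CTCF U replicate 2 above. Jag1 did not rise in those lines (-0.15, -0.46 and -0.42, none past the threshold in the main fit), so part of each difference lies there. For Hes1 the difference from LCL was -0.12 (adjusted p = 0.484). For Jag2 the difference from LCL (0.50 ± 0.17, adjusted p = 0.0265) and from CLC (0.28 ± 0.17, adjusted p = 0.225) missed the threshold.

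Loss of endogenous CTCF alone also moved members, and these comparisons share their U libraries with those of Dox. In CTCFL I against U, 6 of 10 members changed, beside 30.3% of all genes. The 6 include Dll1, whose U and I libraries were the baselines of the choice. Dll1 (0.66), Hey1 (0.78 ± 0.22), Notch3 (0.69 ± 0.09) and Notch1 (0.36 ± 0.09) were up, and Notch2 (-0.52 ± 0.15) and Jag1 (-0.51 ± 0.14) down. By limma 0 were called, with 0 past the fold threshold at an unadjusted p under 0.05 and 0 by edgeR and DESeq2, beside 9.58%. Notch3 and Dll1 passed in every fit, and edgeR and DESeq2 found 3 of 10. The number changed was 2 to 5 when 1 library was left out: without U replicate 1, Jag1 (-0.49), Notch1 (0.34), Notch2 (-0.44) and Hey1 (0.63) all missed the threshold, and without I replicate 2 Jag1 (-0.45), Notch1 (0.30), Notch2 (-0.57) and Hey1 (0.76) did. Some of these genes also missed it without U replicate 3 (Jag1 -0.43, Notch2 -0.38, Hey1 0.70) and without I replicate 3 (Jag1 -0.45, Notch2 -0.36, Hey1 0.69), and Notch1 alone without U replicate 2 (0.34) or I replicate 1 (0.30). Hey1 was called without U replicate 2 (1.01).

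In CTCF I against U, 2 of 9 changed, beside 30.9%. Hey1 rose from 100 and 68.5 to 189, 189 and 162 (1.11 ± 0.17, limma adjusted p = 1.29e-04) and was the 1 member called, beside 10.9%, and Jag1 fell from 509 and 513 to 392, 276 and 281 (-0.71 ± 0.14, adjusted p = 9.07e-04). Without CTCF U replicate 2 Hey1 was below the fold threshold (0.84). Without CTCF I replicate 1, Dll3 passed as well (0.78, adjusted p = 0.00697). In LCL I against U, 4 of 9 rose, beside 28.4%: Hey1 (30.8 and 59.9 to 147 and 118, 1.59 ± 0.27), Notch1 (0.53 ± 0.11), Notch2 (0.47 ± 0.13) and Hes1 (0.46 ± 0.09), with 1 called, Hey1, beside 9.58%. Notch2 missed the threshold without any 1 of the 4 libraries (0.43 to 0.51), Notch1 without I replicate 2 (0.51, adjusted p = 0.0145) and Hes1 without I replicate 1 (0.45, adjusted p = 0.0109). In CLC I against U, 2 of 9 rose, beside 27.2%: Jag2 (306 and 289 to 691 and 669, 1.19 ± 0.11, adjusted p = 7.23e-05), the 1 called beside 12.8%, and Notch3 (1425 and 1449 to 3233 and 2442, 0.97 ± 0.13, adjusted p = 4.96e-04). Without CLC I replicate 1 Jag1 (-1.08) and Hes1 (0.38) passed too, and without CLC I replicate 2 Notch1 (0.73) and Hey1 (0.98), and Notch3 was then called (1.17).

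I and U libraries were also compared within each line, for the 9 members tested in every line. In each of the 4 lines, 3 were higher in every I library than in every U library of that line (Dll1, Notch3 and Hey1). This held for 13.1% of 14396 genes tested in every line. In the same way 1 was lower (Jag1), beside 14.4%. For Dll1 the CTCFL libraries among them also entered the choice. Hey1 and Jag1 missed the threshold in some lines: Hey1 in CLC (0.75, limma adjusted p = 0.0211) and Jag1 in LCL (-0.36, adjusted p = 0.0338) and CLC (-0.62, adjusted p = 0.0761). The test of the difference between the CTCFL and the CTCF line in I against U found 0 of 9 members by limma, with 2 at an unadjusted p under 0.05 and 0 by edgeR, beside 1.63% of all genes. Marker sums moved with IAA as well. Those of pluripotency fell in all 4 lines, for instance to between 98468 and 104210 in CTCFL and from between 252683 and 254040 to between 172217 and 184132 in CLC, with 4 or 5 of 8 markers down per line. Trophectoderm sums went from between 264 and 350 to between 629 and 722 in CTCFL, from between 563 and 628 to between 969 and 1335 in CTCF, from between 86.4 and 90.1 to between 271 and 287 in LCL and from between 110 and 122 to between 520 and 672 in CLC. Germ cell sums were higher in I than in U in all 4 lines, from between 6091 and 6195 to between 8286 and 8581 in CLC for example. Their part in the changes of the members was not tested.

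Other genes of the pathway came from a list of 63 by role, of which 56 to 59 were tested per line. In CTCFL D against U, 10 of 59 rose and 9 fell, 19 in all or 32.2% beside 24.9% of all genes, and 4 were called, all up, beside 5.9%: Dlk2, a ligand-like gene (3.42), Tle2, a corepressor (1.62), and the targets Hey2 (1.24) and Nrarp (1.24). In CTCFL ID against I, 6 rose and 11 fell, 28.8% beside 29.7%. Called were Rbpjl (3.41) and Dlk2 (2.98), up, and Lfng, a glycosyltransferase of the receptors (-1.42), Tle4 (-1.31) and 2 more (down), beside 7.83% of all genes. Dlk2 and Rbpjl reached the minimum mean through libraries with Dox, so their differences had to be large. Unlike Dll4, they were not left out of the counts and shares above, which are a description. In CTCF D 8 of 57 changed, all of them down, 14% beside 4.7% of all genes. In CTCF ID against I, 8 rose and 13 fell, 36.8% beside 25.5%, with Tle4 (-1.12) and the ligand-like Dlk1 (1.05) called. In LCL ID against I, 4 of 56 rose and 19 fell, 41.1% beside 33.1%, and the 5 called all fell. They were led by Maml1 (-1.44), Spen (-1.36), Ep300 (-1.33) and Crebbp (-1.09), coactivators of the Notch complex apart from Spen, a corepressor of RBPJ. In LCL D 2 rose and 5 fell, 12.5% beside 11.3%, with Psen2 of the γ-secretase (1.00) and the receptor Notch4 (-1.80) called. In CLC D 1 rose and 1 fell, 3.51% beside 1.62%. In CLC ID against I 2 rose and 3 fell of 57, 8.77% beside 5.49%, with Dlk1 (-1.66), Notch4 (1.28) and Nrarp (-1.16) called.

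With IAA alone, Dner, a ligand of the nervous system, fell in all 4 lines, by 3.85, 3.63, 3.01 and 4.22 on the log2 scale in CTCFL, CTCF, LCL and CLC. It reached the minimum mean through libraries without IAA, so its falls had to be large, and it was not left out of the shares below. Nrarp, a target that limits the pathway, rose in all 4 (1.71, 1.04, 1.36 and 1.19, each called). Maml3, a coactivator, fell in CTCFL (-2.48) and CTCF (-1.80), and Neurl1b, of ligand endocytosis, rose 3.53-fold in LCL and 2.84-fold in CLC. Over the list, 14 rose and 10 fell in CTCFL (40.7% beside 30.3% of all genes), 14 and 8 in CTCF (38.6% beside 30.9%), 19 and 7 in LCL (46.4% beside 28.4%) and 12 and 7 in CLC (33.3% beside 27.2%). These shares were not tested against those of all genes.

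The FLAG ChIP-seq showed where the transgenic proteins bound. A site here is a merged region with a peak of both replicates, and it counts as at a promoter where its middle is no more than 3 kb from any annotated start of the gene. Strengths are the -log10 q of replicate 1 and replicate 2, as the peak caller MACS gave them, and distances are from the nearest RefSeq start (GENCODE for Hes1 and Hey1). In CTCFL D, 6 of 10 members held a promoter site (Dll3, Dll4, Jag1, Jag2, Notch1 and Hey1), beside 34.4% of 21755 protein-coding genes, and the same 6 did in CTCFL ID, beside 32.4%. In CTCF D there were 7 (these 6 and Hes1), beside 31.9%, and in CTCF ID 5 (without Notch1 and Hes1), beside 25.2%. Among the chimeras, LCL D had 6 (beside 32.3%) and LCL ID 8 (beside 41.4%), CLC D 4 (7.92%) and CLC ID 5 (21.6%). CLL D had 0 (0.947%), CLL ID 4 (15.6%), LLC D 0 (1.4%) and LLC ID 1, Hey1 (4.4%). Many of these sites lie inside the genes. With only the 5′ end of each gene as its start, an alternative added after the data were seen, the members with a site numbered 5 in CTCFL D (beside 28.1% of all genes), 6 in CTCF D (22.4%) and 5 in LCL ID (33.4%). Within 1 kb of any start they were 2 (26.6%), 4 (18.6%) and 5 (30.5%). ChIP depth is unknown and the listed peaks differ between replicates, for instance 49243 and 27971 in CTCFL D, so a site that is not listed was not detected at the depth of these libraries.

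Of the 10 genes, Jag2 held the CTCFL site with the highest values near a start, by the lower of the replicates. It lay upstream of the gene, -0.894 kb from the start (chr12:112930284-112930483 around the summit, outside genes), with 68.8 and 53.3 in CTCFL D and 64.3 and 75.4 in ID. The CTCF site there had 27.2 and 23.7 in D and 5.71 and 4.31 in ID. LCL and CLC also had sites of both replicates there, in D and in ID. The window holds AGGGGGC on the strand opposite to the gene. Dll4 held a site in a coding exon at 1.46 kb, with 54 and 41.3 in CTCFL D and 52.5 and 35.4 in ID, against 11.8 and 28.2 in CTCF D and 10.7 and 4.94 in CTCF ID. CTCF and LCL had a second Dll4 site in D close to the start, at -0.0975 and -0.146 kb, which CTCFL lacked. These strengths come from separate libraries of unknown depth and were not tested against each other.

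At Jag1 and Notch1 the sites of both replicates stood at different places. The CTCFL site of Jag1 lay in an intron at 1.81 kb in D (20.2 and 20.5) and 2.05 kb in ID (10 and 6.24), whereas CTCF (16.6 and 15.4 in D) and LCL stood upstream, at -1 and -1.29 kb in D. CLC took the upstream place in ID (-1.03 kb, 4.13 and 7.23) and had no site in D. Single replicates also listed peaks at the other place. In CTCFL ID a peak was listed upstream at -1.09 kb in replicate 1 (8.12), and inside the gene replicate 2 listed peaks of LCL D at 2.24 kb (2.37), LCL ID at 2.14 kb (6.69) and CLC ID at 2.13 kb (3.11). At Notch1, CTCFL stood at the RefSeq start, -0.216 kb in D (11.1 and 6.49) and -0.109 kb in ID (4.86 and 3.24). In the GENCODE annotation this is an intron of a longer Notch1 gene. CTCF and LCL instead had a site in a coding exon at 42.8 kb in D (11.2 and 8.54 for CTCF), beside an internal annotated start, and none at the RefSeq start.

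Dll3 and Hey1, like Jag2 and Dll4, held promoter sites of all 4 proteins in both D and ID. Those of Dll3 lay at 2.48 kb with 48.5 and 37 in CTCFL D and at 2.53 kb with 25.8 and 28.8 in CTCF D, with the summit of both in an intron. The summits of CTCF ID, LCL ID and CLC ID fell in a coding exon nearby. Those of Hey1 lay in a coding exon. In D the strengths were 45.2 and 42.8 for CTCFL (2.55 kb) and 44.6 and 70 for CTCF. In ID they were 62.8 and 59.2 for CTCFL and 125 and 108 for CTCF (2.5 kb). Neither gene passed the test in CTCFL D against U. Notch3 had CTCFL sites in an intron (4.64 kb) and in a coding exon (23.5 kb), and Notch2 had one in a coding exon (85.8 kb), none of them near a start. Hes1 had no CTCFL site in the gene, and only CTCF D (2.73 kb, 12.1 and 7.55) and LCL ID (2.63 kb) had one. Jag1, Jag2 and Notch1 held a CTCFL promoter site in D and rose. Dll3 and Hey1 held one and did not pass the test, and Dll4 carries no test. Without one, Hes1 rose, and Notch2 and Notch3 did not pass the test. Dll1, also without one, carries no test, since its rise chose the set. The share of all genes with such a site that rose was not taken, so no link can be read from these members. The part of these sites in the changes of RNA was not tested.

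**Figure D3:**
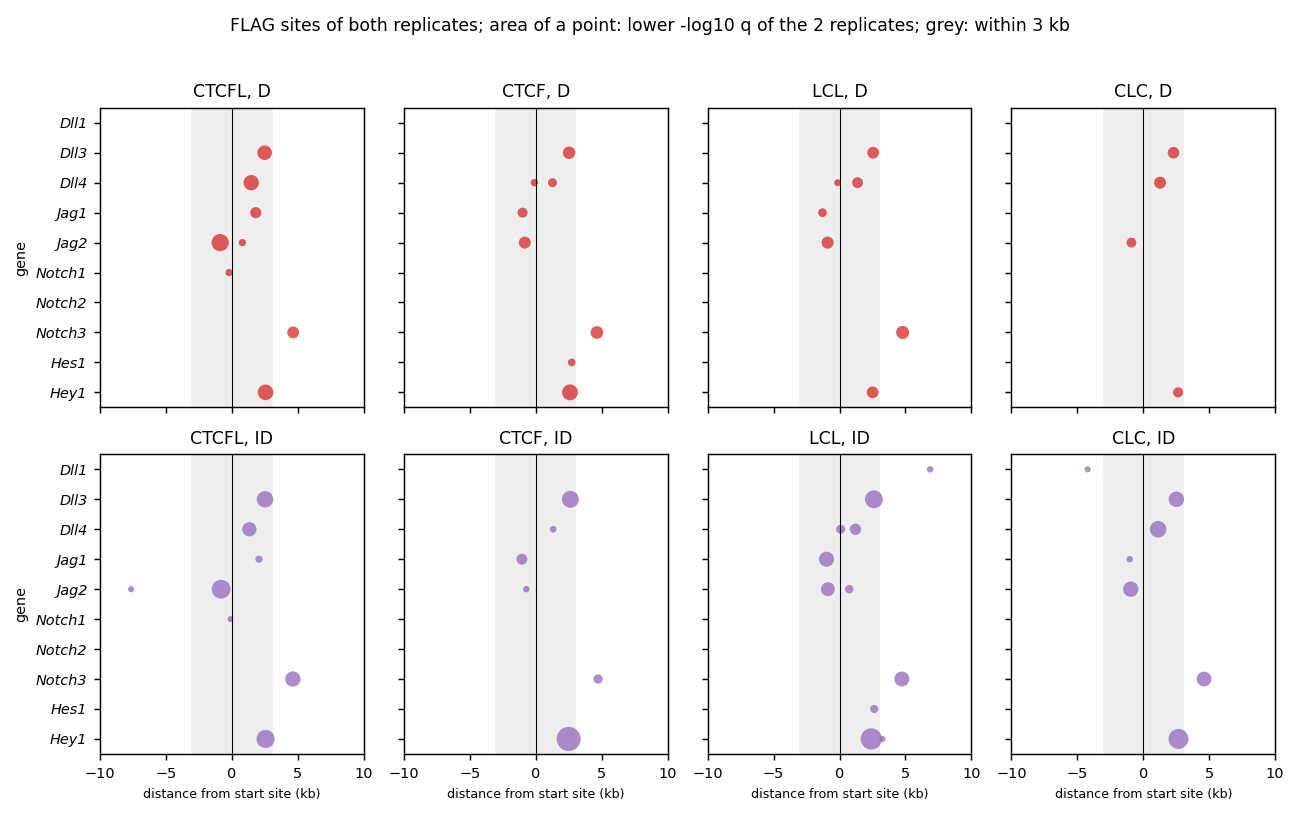
FLAG sites of both replicates within 10 kb of the start of each gene (x axis, distance in kb, positive into the gene; rows, the 10 genes) for 4 transgenes in D and ID, with point area by the lower -log10 q of the replicates and the 3 kb window in grey. CTCFL stands at the Notch1 start and inside Jag1, CTCF and LCL upstream of Jag1, and no CTCFL site of both replicates is within 10 kb of the Dll1 start.

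Dll1, on chromosome 17 from 15367354 to 15376872 on the minus strand, had no CTCFL site of both replicates within 50 kb. The nearest was 81.1 kb upstream of the 5′ end of the gene in D (12.3 and 7.97) and in ID (8.53 and 9.93), and CTCF D had a site at the same place (4.85 and 7.5). In CTCFL D a peak at 4304 bp upstream was listed in replicate 1 (-log10 q 4.59) but not in replicate 2. At this position CLC ID had a site of both replicates, 4.28 kb upstream (4.99 and 3.27), and LCL D and LCL ID each had a peak in replicate 2 only (4.46 and 4.3). LCL ID had a site in a coding exon, 7.92 kb from the 5′ end (7.02 and 4.6). CTCF D listed 4 peaks within 10 kb in replicate 2, 1 of them 1069 bp upstream (3.14), and none in replicate 1. The authors describe CTCFL binding at the Dll1 promoter, whereas here neither replicate of CTCFL D listed a peak within 3 kb of a Dll1 start. Neither RefSeq promoter of Dll1 holds a core word. No RAD21 site of both replicates, the cohesin subunit, lay in a member or at its promoter, but RAD21 sites were few in all (117 to 3450 per condition).

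Domain calls at Dll1 are given here as a description. They cover 12 Hi-C conditions and leave out CLL ID. By 1 caller the gene lay in a domain of 400 kb with an edge 103 kb from its start in all 12. By the other the domain was 240 kb with an edge at 23 kb in 9 conditions, CTCFL U and D among them, 320 kb in CLC D and not listed in CTCF I and CTCFL ID. Each condition has 1 list per caller, in steps of 40 kb, and no replicate. By the protocol these cells were treated for 4 days and those of RNA-seq for 2. The relation of the domains to the RNA of Dll1 was not tested.

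The protein-coding neighbors of Dll1 within 250 kb were Fam120b, Psmb1, Tbp, Pdcd2 and Prdm9. In CTCFL D against U Pdcd2 was the only one of the 5 to change, and fell (-0.50, limma adjusted p = 6.39e-04). In ID against I Tbp fell (-0.37, adjusted p = 0.00795), and Fam120b, the nearest with its start 19330 bp away, had -0.33 (adjusted p = 0.0191) in D.

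The genes most like Dll1 over the 38 libraries, by Pearson's r of log2(value + 1) among 16480 genes, were Nemp2 (0.98), Atf3 (0.97), Ddit3 (0.96), Mchr1 (0.96) and Eno2 (0.96). All 5 were lower in LCL and CLC. With line means removed r was 0.85, 0.77, 0.81, 0.69 and 0.67. Atf3 and Ddit3 are transcription factors of the stress response. The 5 genes were picked for following Dll1 over these libraries, so their values are a description and carry no test. Ddit3 was higher with Dox in CTCFL D (2.21), in CTCF D (0.90) and in ID against I of CTCFL (1.52), CTCF (1.57) and LCL (1.35). Among the members r with Dll1 was 0.88 for Jag2 (0.73 with line means removed), 0.78 for Notch1 (0.52), 0.64 for Notch3 (0.06) and 0.53 for Hey1 (0.54). It was -0.02 for Dll3 (0.35), -0.05 for Hes1 (0.67), -0.27 for Jag1 (0.17) and -0.29 for Notch2 (-0.22). Dll4 was below the minimum mean over all libraries and has no r. Libraries of a line and a group are not independent, so these are descriptions over 38 libraries.

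**Figure D4:**
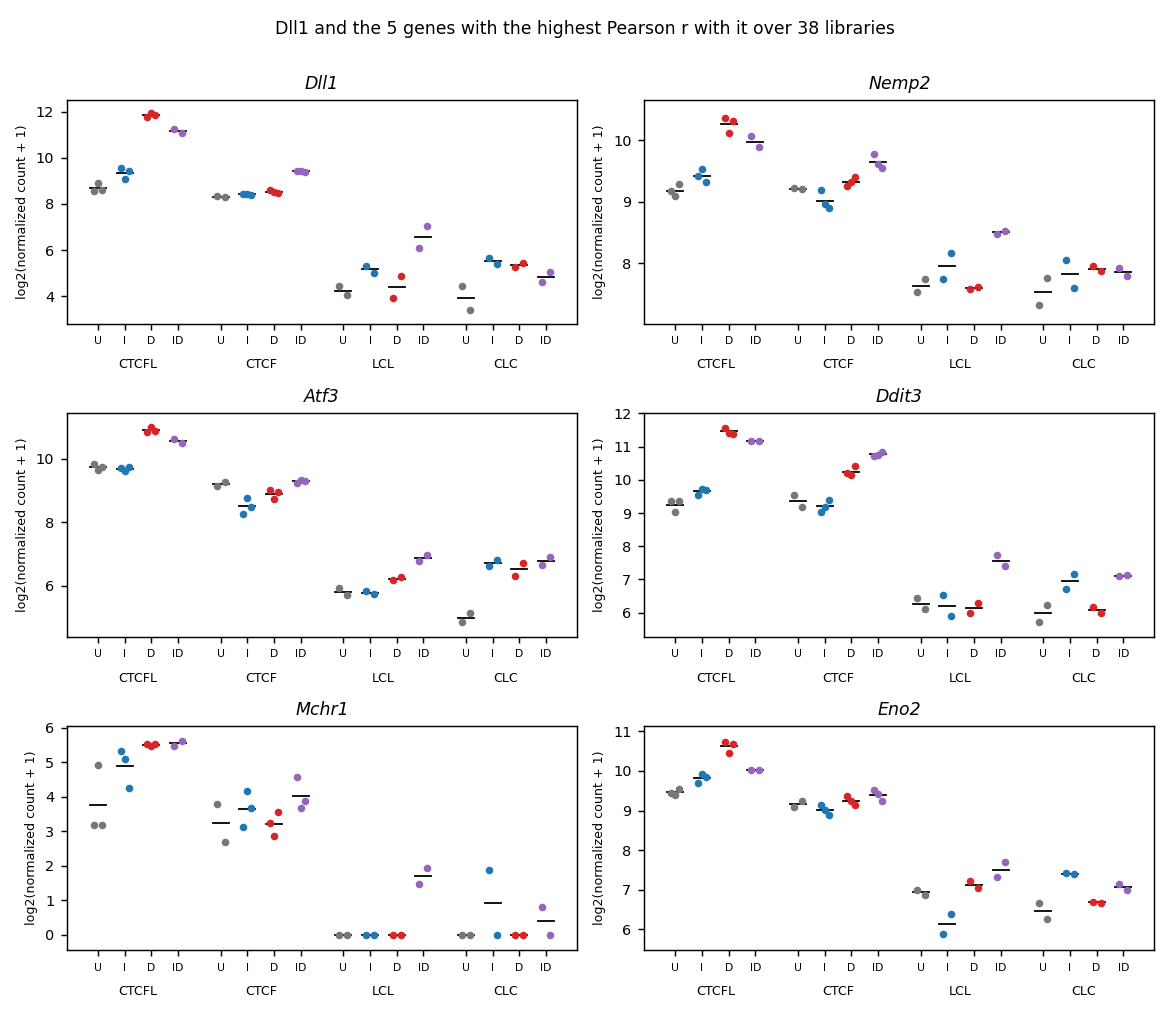
Normalized counts of Dll1 and the 5 genes with the highest Pearson r with it over 38 libraries, as log2(value + 1), by line and condition; each point is a library, each bar the group mean, and the axes do not start at 0. All 6 genes are lower in the LCL and CLC lines and highest in D or ID of the CTCFL line.

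Compared per kb of exon in CTCFL D, Hes1 had the highest mean level of the 10 genes (1226), then Dll1 (876), Notch3 (275), Notch1 (242), Jag2 (184), Jag1 (125), Notch2 (106), Hey1 (44.3), Dll3 (20.2) and Dll4 (10). In CTCFL U, Dll1 (98.1) lay between Jag2 (90.6) and Notch1 (144). Dll1 was thus the most abundant of the 5 ligands in CTCFL D by this measure, and in LCL U (4.26) and CLC U (3.63) it was below Dll3 (20.6 and 25.5), Jag1 (118 and 91.6) and Jag2 (54.4 and 42.7).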

How the data were processed

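RNA-seq, FLAG and RAD21 ChIP-seq and Hi-C domain lists were analysed as deposited, with groups and replicate numbers from the sample labels. The members and gene lists were chosen with earlier results of these data known. For RNA-seq (poly(A), directional), alignment by the authors used STAR and GRCm38/mm10, and the deposited signal values are gene counts divided by 1 size factor per library. HTSeq is among the tools in the submitters' processing notes. Whole reads were recovered in 36 libraries, where 100% of values of up to 500 reads lay within 0.1 of a whole number. Replicate 2 of CTCFL I and of CTCFL ID have a step close to 1 and entered no test on reads, so CTCFL ID then had 1 library, assumed to vary like the other groups. The recovered totals give the depth, and counting error is largest for low genes such as Dll4.

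Values were fitted with limma 3.58.1 (R 4.3.3; trend) on log2(value + 1), in 1 fit per line over its 4 conditions (16840 genes in CTCFL, 16705 in CTCF, 15274 in LCL, 15337 in CLC) and in 1 fit of all lines (16480 genes) for differences between lines. The deposited values were a normalized unit, so the authors' count model (DESeq2) was not the main test. Dll4 was left out of tests and counts of CTCFL with Dox, a choice made after its values were seen, since it passed the minimum mean only through those libraries. Alternatives were a pseudocount of 5, no minimum mean or one of 50, TMM factors, the 2 groups alone, a replicate block, reads tested with edgeR 4.0.16 or DESeq2 1.42.0, and each library left out. Fits were tested on simulated data. Named were all members, pathway genes called (at most 4 per comparison by size), neighbors of Dll1 within 250 kb and the 5 genes most correlated with it. Levels per kb divide by the exon length of the gene in GENCODE vM21.

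In ChIP-seq the authors used Bowtie2 and unique reads without duplicates, and ran MACS on each replicate with a q threshold of 0.05 (broad for RAD21). The deposited lists hold -log10 q values and fold enrichment ratios, as MACS gave them, and no reads. Peaks of both replicates overlapping by at least 1 bp were joined to sites. Alternatives were a window of 1 kb, a -log10 q of at least 5, an overlap of 50% and either replicate alone. Sequences came from GRCm38 (pysam 0.24.0) and RefSeq promoters (GRCm38.p6), which held 8 of the 10 genes. The domain lists deposited by the authors hold the start and end of each domain, in steps of 40 kb.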

Additional observations from a re-analysis of the deposited data

Results flagged for a closer look

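The effect of Dox differed between lines, by a test of the difference itself, for these members. In D against U, the CTCFL line exceeded the CTCF line in Jag1 (by 1.04 on the log2 scale), Jag2 (1.24), Notch1 (0.82) and Hes1 (0.46), the LCL line in Jag1 (1.35) and Notch1 (0.84), and the CLC line in Jag1 (1.31), Notch1 (0.87) and Hes1 (0.57). In ID against I it exceeded the CTCF line in Jag2 (0.82). Within the CTCFL line, Dox with IAA moved Jag1 (-0.94) and Hes1 (-0.45) less than Dox alone. Each line is a single clone, so transgene and clone cannot be told apart in these differences. For those from LCL and CLC, whose library names carry a tag that CTCFL lacks, a part of medium or batch was not tested.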

How the results depend on the processing

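Of 2124 values of single genes under the alternatives, 1987 kept their direction and their side of the threshold, and 45 changed sign without passing it in either fit. A further 67 no longer passed it, 25 newly passed it and none reversed. Rescaling by TMM factors moved the median of all genes by less than 0.1. The replicate numbers do not mark shared cultures in the labels, and same-numbered libraries deviated together in few pairs (correlation over 0.1 in 0 of 15 pairs in CTCFL, 2 of 15 in CTCF, 0 of 12 in LCL and 0 of 12 in CLC). With the replicate block, members changed in CLC D against U went from 1 to 0 and in LCL D against U from 2 to 4 (with Jag1 and Jag2).

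The following counts of members moved, and the cause was not tested. Changed in CLC D against U were 0 without the filter and 2 with the groups alone, and 0 with a library left out. Changed in CLC ID against I were 1 with a minimum mean of 50, edgeR or DESeq2, and 0 to 1 with a library left out. In CTCF I against U, 1 changed with the groups alone. In CTCF ID against I, 1 was called by DESeq2. In CTCFL I against U, 3 changed without the filter and by edgeR and DESeq2. The difference within the CTCFL line gave 1 with TMM factors and 0 by edgeR. In LCL D against U, 0 were called and 1 changed without the filter, and 0 were called with the groups alone. With a library left out, called were 0 to 1 in CTCF I, CTCF ID, CTCFL I, CTCFL D, CTCFL ID and LCL D and 1 to 2 in CLC I. Changed were 2 to 5 in CTCFL I, 1 to 2 in LCL D, 2 to 3 in LCL I and 2 to 4 in CLC I. The differences in D of CTCFL from CTCF gave 2 to 4, from LCL 1 to 3, and that within the CTCFL line 0 to 2.

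Members with a promoter site within 1 kb were 4 in CTCF D, 2 in CTCF ID, CTCFL D, CTCFL ID, LCL D and CLC ID, 5 in LCL ID, 1 in CLC D and CLL ID and 0 in LLC ID. At a -log10 q of at least 5 they were 3 in CTCF ID and 0 in LLC ID, at an overlap of 50% 2 in CLC D, and with the 5′ end alone 5 in LCL ID. With either replicate alone they were 0 to 5 in CLL D, 1 in LLC D and 2 to 3 in LLC ID.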
